A study of Mus musculus with 4 samples.

Results

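The transcripts described here are those of 47 mouse genes of mitosis and the kinetochore, from the cyclins and kinases that start mitosis to the proteins that condense, attach and separate chromosomes. The list was written by name, and a gene was included where the annotation assigned its symbol, and no other, to a probe set. Each probe set combines several short probes for 1 transcript or, in some cases, for more than 1. Where a gene had several probe sets, the one with the highest mean over the 4 arrays was used. This gave 46 of the 47 genes a value, out of 18193 genes named in this way on the array, and cyclin B1 (Ccnb1) was not analysed here. Total RNA was taken at passage 3 from primary fibroblasts of mouse embryos, cells of connective tissue that divide in culture for a limited time. The groups were 2 wild-type lines and 2 RBP2-null (RBP2-/-) lines, each line independent and on 1 Affymetrix array. RBP2, now named Kdm5a, is a histone demethylase acting on lysine 4 of histone H3. The sources used here do not say which part of its gene was deleted.

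Mitotic genes are switched on late in the cell cycle and are silenced when a culture stops dividing, so their summed level follows the share of cycling cells. Cyclins A and B activate the kinase Cdk1, which together with Plk1 and the Aurora kinases drives entry into mitosis. The kinetochore then ties chromosomes to the spindle, and the spindle checkpoint holds back the ubiquitin ligase that destroys securin and cyclin B until every chromosome is attached. In RNA from whole cultures, fewer dividing cells and less transcript per dividing cell cannot be told apart.

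Median deposited signal lay between 21.5 and 43.7 on the 4 arrays, and the arrays were quantile normalized before comparison. Wild-type replicate 1 correlated with the other arrays at 0.933 to 0.937 over all probe sets, while the highest correlation of any other array was 0.962. Of 11 measured fibroblast markers, 8 lay above the 90th percentile of signal, among them Col1a1, Col1a2 and Vim, against 1 of 6 epithelial, 1 of 5 neural and 0 of 5 endothelial, 7 leukocyte and 5 pluripotent markers. The brightest probe set of Kdm5a, the targeted gene, had log2 signals of 6.72 and 7.65 in wild type and 6.40 and 6.49 in RBP2-null cells, or a log2 fold change of -0.74 (standard error, SE, 0.34). A dimmer Kdm5a probe set had 5.84 and 6.39 in wild type and 4.52 and 5.21 in RBP2-null cells, or -1.24 (SE 0.41), and the other tested ones had -0.25, 0.24 and 0.15. None of them passed the test, and a probe set outside the deleted part would not check the labels.

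None of the 46 mitotic genes differed between genotypes past the threshold, an adjusted p of 0.05 in limma, 0 of them higher and 0 lower without RBP2. Over all 27022 probe sets tested the share past that threshold was 0.0037%, or 1 probe set. At an unadjusted limma p under 0.05 there was 1 mitotic gene, Pttg1, or 2.17%, against 2.60% of all genes tested and 2.98% of all probe sets tested. Log2 fold changes, RBP2-null over wild type and on the scale of log2(signal + 9), ran from -0.56 to 0.73, with 23 above 0 and 23 below. Their median was -0.0095, and the median over 13097 genes tested was -0.010. For 38 of the 46 genes, or 82.6%, the 95% interval lay between -1 and 1, so that a 2-fold change was outside it, and the same held for 59.3% of the genes tested. The remaining 8 were Cdc25b, Cdc25c, Bub1, Pttg1, Ndc80, Nuf2, Kif23 and Tpx2. These counts are for 1 probe set per gene and do not cover a gene's dimmer ones. For Incenp, among the 38, a dimmer probe set had an estimate of 1.10 (SE 0.62), itself past a 2-fold change. The mitotic genes had a median percentile of mean signal of 87.1 among all probe sets, which taking each gene's brightest probe set raises. Median log2 signals of the mitotic genes were 7.83 and 8.10 in wild type and 7.68 and 8.09 in RBP2-null cells. Over all genes tested, also by the brightest probe set, they were 6.83, 6.81, 6.80 and 6.81 on the same arrays. The median standard error of the mitotic genes was 0.25, against 0.30 over all genes tested. The shares of 82.6% and 59.3% are therefore not of genes measured equally well.

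The split around 0 depended on how the arrays were brought to a common level. With arrays centred on their medians 37 of the 46 estimates were above 0, but the median of all tested probe sets then stood at 0.18, and relative to it 30 mitotic genes were above and 16 below. Without scaling 45 were above 0, with the median of all at 0.38, and relative to it the count was again 30 and 16. It depended on single lines too. With wild-type replicate 1 left out, 12 estimates were above 0, and with wild-type replicate 2 left out 29 were. No member passed under any of these settings. The counts above and below 0 that follow are for quantile normalized arrays.

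**Figure D1:**
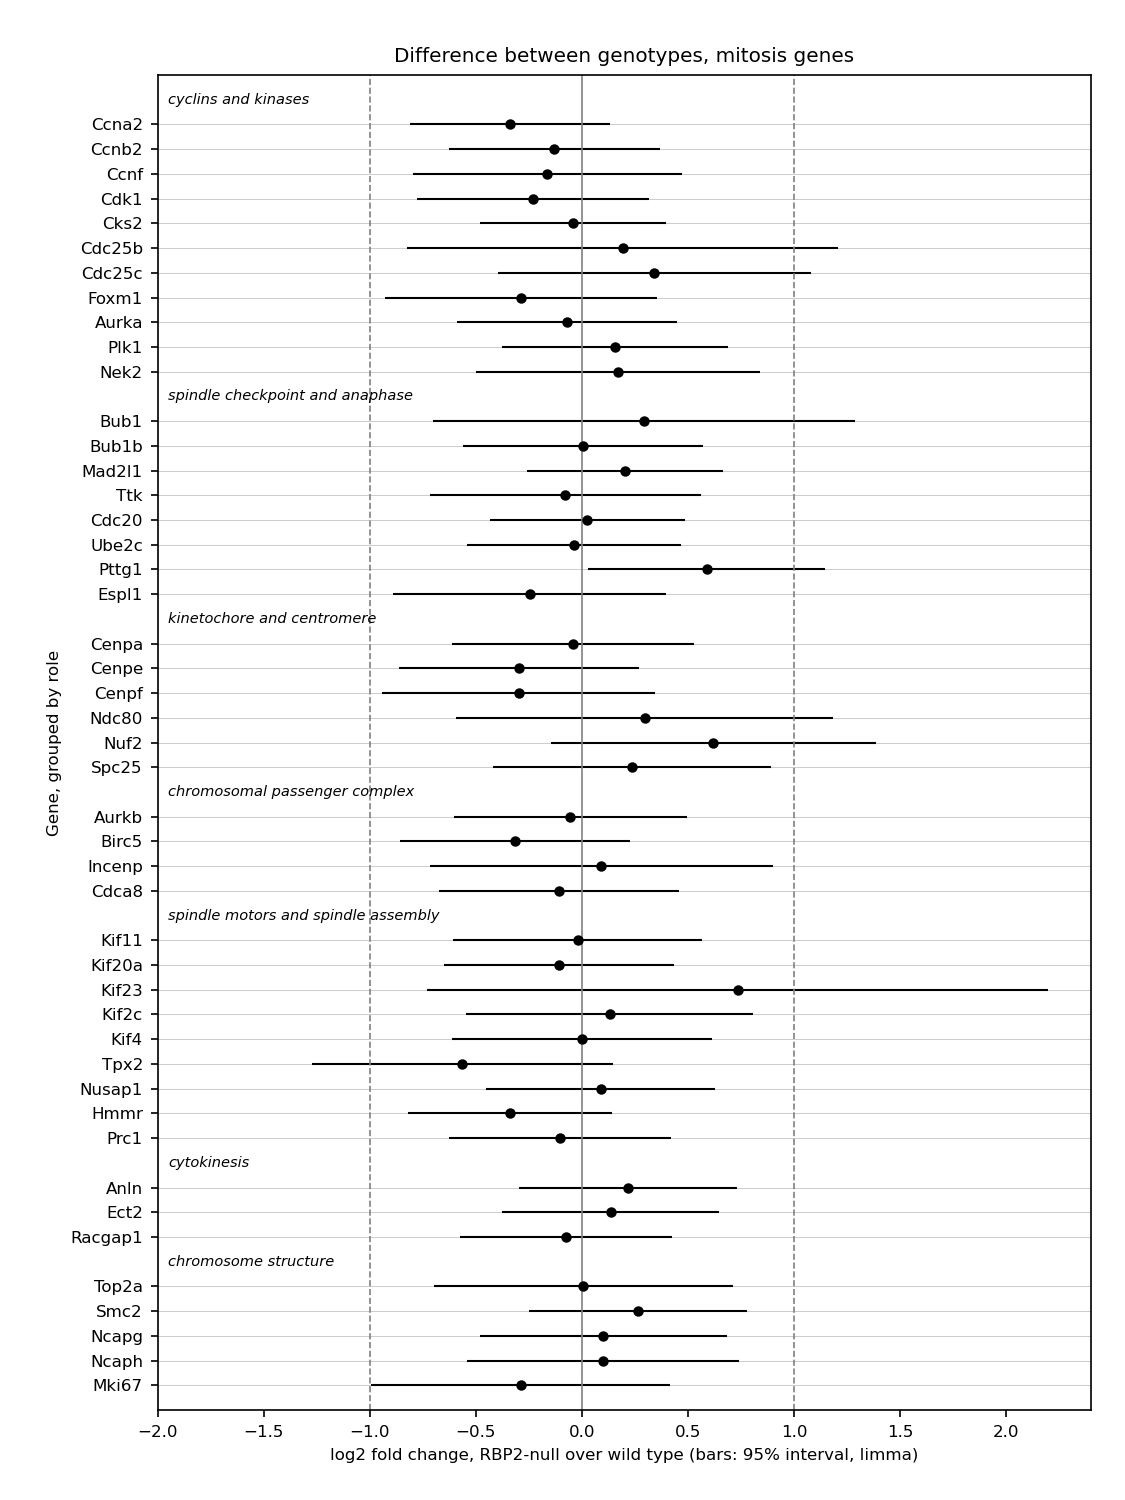
Log2 fold change of each of the 46 genes, RBP2-null over wild type, with its 95% interval from limma (2 lines per genotype). Dashed lines mark a 2-fold change in either direction. Estimates lie from -0.56 (Tpx2) to 0.73 (Kif23), and the interval of Pttg1 alone does not reach 0.

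The promoters of these genes carry a feature that the list did not use. Late cell cycle promoters are known to hold a cell cycle genes homology region (CHR), read by the MuvB-containing complexes, often downstream of CCAAT boxes bound by NF-Y. In RefSeq windows of 300 bases on GRCm38.p6, from 250 before to 50 after an annotated start, 39 of the 46 genes had 41 windows. The CHR was searched as TTTGAA or TTCGAA on both strands, and matched 32 of the 41 windows, or 78.0%, against 19.2% of all 32851 promoters. CCAAT on both strands matched 78.0% of the windows against 37.4% of all promoters. A CHR together with at least 2 CCAAT boxes was found in 18 windows, or 43.9%, against 2.31%. The E2F-type letters TTCCCGC or TTGGCGC, on both strands, matched 14.6% against 6.81%. Motifs of different kinds were counted separately and could overlap. The CHR matches lay near the start, with a median position of -2.5 bases and 75.6% of 41 matches from 100 bases before to 50 after it, against 42.2% of 7260 matches in all promoters.

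The promoters shown are those for the kinase Cdk1, a cyclin, the anaphase activator, the topoisomerase and the mitotic gene with the smallest p. They are read 5′ to 3′ on the gene's strand, here the minus strand for each, with CHR and CCAAT matches of either strand in capitals. The windows are chr10:69352863-69353162 for Cdk1, chr9:70421505-70421804 for Ccnb2, chr4:118437294-118437593 for Cdc20, chr11:99024140-99024439 for Top2a and chr11:43425932-43426231 for Pttg1.
Cdk1: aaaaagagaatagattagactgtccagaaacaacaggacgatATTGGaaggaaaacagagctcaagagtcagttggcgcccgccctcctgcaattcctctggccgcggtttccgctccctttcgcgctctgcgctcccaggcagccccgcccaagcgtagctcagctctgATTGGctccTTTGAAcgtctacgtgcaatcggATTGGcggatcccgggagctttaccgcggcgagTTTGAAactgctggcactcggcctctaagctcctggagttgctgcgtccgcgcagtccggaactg
Ccnb2: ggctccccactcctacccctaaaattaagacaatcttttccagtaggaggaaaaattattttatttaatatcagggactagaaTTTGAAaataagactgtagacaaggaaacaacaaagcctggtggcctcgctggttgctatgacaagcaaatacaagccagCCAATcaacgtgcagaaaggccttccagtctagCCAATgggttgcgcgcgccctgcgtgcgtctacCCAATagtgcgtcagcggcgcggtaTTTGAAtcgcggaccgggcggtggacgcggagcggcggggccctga
Cdc20: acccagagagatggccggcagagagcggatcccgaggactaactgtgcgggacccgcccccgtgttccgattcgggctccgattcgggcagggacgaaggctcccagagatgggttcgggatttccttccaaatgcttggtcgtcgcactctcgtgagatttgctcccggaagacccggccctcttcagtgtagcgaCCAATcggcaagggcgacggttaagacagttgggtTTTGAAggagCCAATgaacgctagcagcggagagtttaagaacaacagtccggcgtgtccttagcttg
Top2a: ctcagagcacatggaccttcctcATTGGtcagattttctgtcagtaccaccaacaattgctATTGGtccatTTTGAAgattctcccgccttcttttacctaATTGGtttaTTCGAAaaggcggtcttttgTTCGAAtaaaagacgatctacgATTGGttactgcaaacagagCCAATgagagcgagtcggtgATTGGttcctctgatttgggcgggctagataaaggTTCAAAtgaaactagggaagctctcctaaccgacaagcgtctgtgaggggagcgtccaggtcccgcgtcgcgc
Pttg1: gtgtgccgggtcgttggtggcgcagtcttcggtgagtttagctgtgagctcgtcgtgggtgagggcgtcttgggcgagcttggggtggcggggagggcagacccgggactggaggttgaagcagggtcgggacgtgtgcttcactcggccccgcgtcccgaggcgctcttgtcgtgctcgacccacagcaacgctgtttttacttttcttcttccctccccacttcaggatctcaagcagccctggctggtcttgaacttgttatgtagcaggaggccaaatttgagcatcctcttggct
Cdk1 and Ccnb2 each have 2 CHR and 3 CCAAT matches, and the CHR nearest the start lies at -12.5 bases in Cdk1 and at 6.5 in Ccnb2. Cdc20 has 1 CHR and 2 CCAAT matches, and Top2a has 4 and 6. The Pttg1 window holds neither set of letters, as do those of Birc5, Mad2l1, Ncaph, Nuf2 and Nusap1. The 30 genes with a CHR match had a median log2 fold change of -0.0095 and the 9 without one had 0.099, with 15 and 6 estimates above 0.

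**Figure D2:**
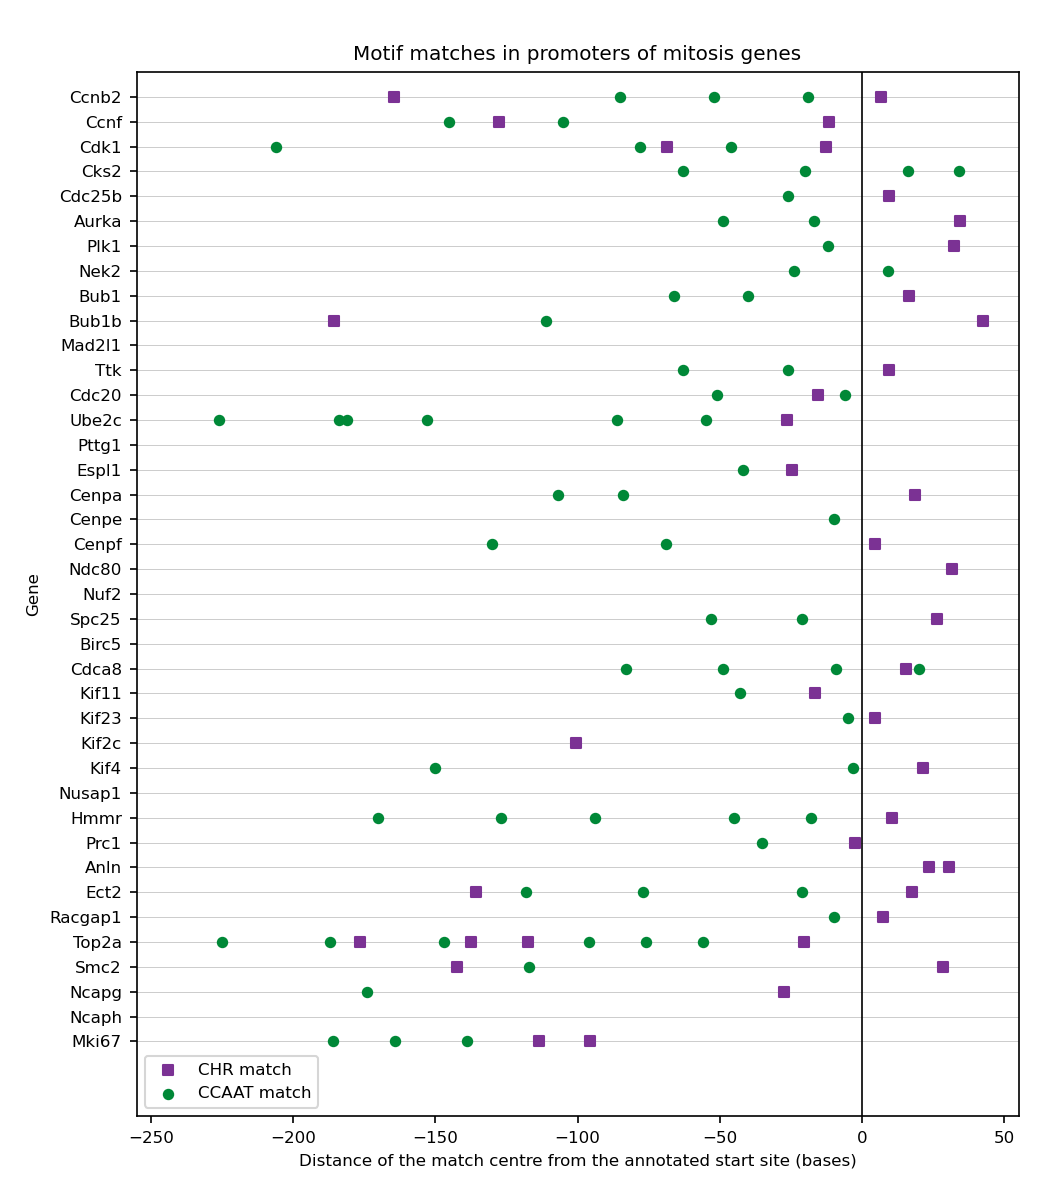
Position of CHR and CCAAT matches in the promoters of 39 mitotic genes, as distance of the match centre from the annotated start in bases. CHR matches gather around the start, where 31 of 41 fall from 100 bases before to 50 after it, and CCAAT matches mostly lie before it.

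Cyclins, kinases and their regulators had 4 estimates above 0 and 7 below among 11 genes, and none passed. Cdk1, the kinase that triggers mitosis, was the brightest of them, with log2 signals of 10.53 and 10.04 in wild type and 10.28 and 9.83 in RBP2-null cells. The genotypes overlapped, and in both of them replicate 1 was the higher line. The log2 fold change of Cdk1 was -0.23 (SE 0.24), and it was 0.085 with median-centred arrays and 0.015 without wild-type replicate 1. Ccna2, the S and early mitotic cyclin, had 9.19 and 9.28 in wild type and 9.02 and 8.77 in RBP2-null cells. Both RBP2-null lines were below both wild-type lines, and the log2 fold change was -0.34 (SE 0.21, 95% limits -0.81 and 0.13). The other Ccna2 probe set had -0.31, but the genotypes overlapped on it, with 9.05 and 8.76 in wild type and 8.30 and 8.88 in RBP2-null cells. Ccnb2, a B-type cyclin, and Ccnf, an F-box cyclin, had log2 fold changes of -0.13 and -0.16.

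Foxm1, the transcription factor that drives many mitotic genes, had log2 signals of 7.39 and 7.13 in wild type and 7.21 and 6.73 in RBP2-null cells. RBP2-null replicate 2 was the low line and the genotypes overlapped. Its log2 fold change was -0.29 (SE 0.28), and its other probe sets had -0.16 and -0.54. Plk1, the Polo kinase of spindle assembly, had 7.94 and 8.30 in wild type and 8.31 and 8.24 in RBP2-null cells. Only wild-type replicate 1 was low for Plk1, and the log2 fold change was 0.16 (SE 0.23), or -0.024 without that line. The phosphatases that activate Cdk1 were dimmer. Cdc25c had 5.95 and 6.11 in wild type and 6.65 and 6.08 in RBP2-null cells, with a log2 fold change of 0.34 (SE 0.32), and its other probe set had 0.13. Cdc25b had 0.19 (SE 0.44), its wild-type lines differing by 1.34, and -0.48 without wild-type replicate 1. Aurora kinase A (Aurka) and the Cdk subunit Cks2 had -0.072 and -0.042, and the centrosome kinase Nek2 had 0.17.

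Of 8 genes of the spindle checkpoint and anaphase, 5 had estimates above 0 and 3 below, and none passed. Pttg1, the securin that keeps sister chromatids joined, had log2 signals of 8.94 and 9.58 in wild type and 9.80 and 9.90 in RBP2-null cells. Both RBP2-null lines were above both wild-type lines, and wild-type replicate 1 was the lowest. The deposited signal of Pttg1 was 288.5 and 778.4 in wild type and 745.4 and 1445 in RBP2-null cells, before scaling. Its log2 fold change was 0.59 (SE 0.24), its 95% limits were 0.031 and 1.14, its unadjusted p was 0.041 and its limma adjusted p was 1.00. The estimate was 0.27 when wild-type replicate 1 was left out and 0.91 when wild-type replicate 2 was. Another bright Pttg1 probe set had 9.13 and 8.89 in wild type and 8.61 and 8.98 in RBP2-null cells, or -0.22 as a log2 fold change, while a dimmer one had -0.019. The identifier of the brightest ends in _s_at, which marks probes shared by more than 1 transcript.

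Cdc20, which activates the ligase that destroys securin, had 9.59 and 9.90 in wild type and 9.70 and 9.84 in RBP2-null cells. The genotypes overlapped almost fully, and the log2 fold change was 0.025 (SE 0.20). Its other probe sets had 0.0086 and, on the dimmest, 0.64 (SE 0.31), and the mean over the 3 was 0.23. Ube2c, the ubiquitin-conjugating partner of that ligase, had -0.038 and Espl1, the separase that cuts cohesin, had -0.25. Among checkpoint proteins, Mad2l1 had 8.71 and 8.77 in wild type and 8.90 and 8.99 in RBP2-null cells. The RBP2-null lines were above the wild-type lines by a small step, with a log2 fold change of 0.20 (SE 0.20). The checkpoint kinases Bub1, Bub1b and Ttk had 0.29, 0.0062 and -0.078. The estimate of Bub1 was -0.43 without wild-type replicate 1, and its wild-type lines differed by 1.44, more than any difference between genotypes among the 46 genes.

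Kinetochore and centromere genes had 3 estimates above 0 and 3 below, and none passed. Nuf2, a microtubule-binding subunit of the Ndc80 complex, had log2 signals of 7.33 and 6.51 in wild type and 7.30 and 7.78 in RBP2-null cells. Wild-type replicate 2 was low and RBP2-null replicate 2 high, with overlap between the genotypes. The log2 fold change of Nuf2 was 0.62 (SE 0.34, 95% limits -0.15 and 1.39), and it was 0.21 without wild-type replicate 2. Its partner Ndc80 had 5.31 and 6.05 in wild type and 5.69 and 6.26 in RBP2-null cells. Replicate 2 was the higher line in both genotypes, and the log2 fold change of 0.30 (SE 0.39) was -0.075 without wild-type replicate 1. Spc25, another subunit, had 0.24. Cenpa, the histone variant that marks the centromere, had 7.97 and 8.34 in wild type and 7.94 and 8.29 in RBP2-null cells. Its genotypes were nearly superposed, at -0.040 (SE 0.25). The motor Cenpe had -0.30 with both RBP2-null lines below both wild-type lines. Its other probe set had 0.17, and there the genotypes overlapped. Cenpf, a large kinetochore protein, also had -0.30, with 7.42 and 7.33 in wild type and 6.79 and 7.36 in RBP2-null cells, where RBP2-null replicate 1 alone was low.

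In the chromosomal passenger complex, which corrects wrong attachments and guides cytokinesis, 1 of 4 estimates was above 0 and none passed. Its kinase Aurkb had 7.56 and 7.41 in wild type and 7.39 and 7.47 in RBP2-null cells. The 4 lines lay close together, with a log2 fold change of -0.055 (SE 0.24), although a dimmer Aurkb probe set had 0.62 (SE 0.44). Survivin (Birc5), the subunit that brings the complex to chromosomes, had 8.74 and 8.99 in wild type and 8.33 and 8.77 in RBP2-null cells. RBP2-null replicate 1 was the low line, and the log2 fold change of Birc5 was -0.31 (SE 0.24). The scaffold Incenp had 7.89 and 8.41 in wild type and 7.72 and 8.76 in RBP2-null cells. Replicate 2 was higher in both genotypes, by 0.52 and 1.04, and the log2 fold change of Incenp was 0.092 (SE 0.35). Borealin (Cdca8) had -0.11.

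Among 9 spindle motors and assembly factors, 4 estimates were above 0 and 5 below, and none passed. Kif23, a motor of the central spindle, had the highest estimate of the 46 genes, with log2 signals of 4.69 and 7.03 in wild type and 6.46 and 6.72 in RBP2-null cells. Wild-type replicate 1 alone was low, at a deposited signal of 13.3 against 125.0, 59.3 and 152.1 on the other arrays. The log2 fold change of Kif23 was 0.73 (SE 0.64), and without wild-type replicate 1 it was -0.44. Tpx2, which activates Aurora kinase A on the spindle, had the lowest estimate, with 8.18 and 7.43 in wild type and 7.05 and 7.43 in RBP2-null cells. Wild-type replicate 1 was high here, and the log2 fold change of -0.56 (SE 0.31) was -0.19 without it. Another Tpx2 probe set of similar brightness had 6.86 and 7.86 in wild type and 7.51 and 7.49 in RBP2-null cells, with a log2 fold change of 0.14. The remaining tested probe sets of Tpx2 had -0.30 and -0.038, so 3 of 4 were below 0.

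Hmmr, a spindle and hyaluronan-binding protein, had 8.73 and 8.60 in wild type and 8.31 and 8.34 in RBP2-null cells. Both RBP2-null lines were lower, with a log2 fold change of -0.34 (SE 0.21, 95% limits -0.82 and 0.14). Its other probe sets had -0.090, 0.069, 0.13 and 0.16. The bipolar spindle motor Kif11 had 7.10 and 7.26 in wild type and 7.04 and 7.29 in RBP2-null cells, or -0.020 (SE 0.26), and its other probe sets had 0.52 and 0.22. The motors Kif20a, Kif2c and Kif4 had -0.11, 0.13 and 0.00075, and the microtubule bundlers Nusap1 and Prc1 had 0.088 and -0.10.

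The cytokinesis genes had 2 estimates above 0 and 1 below, and none passed. Anillin (Anln), the scaffold of the contractile ring, had 9.43 and 9.81 in wild type and 10.03 and 9.65 in RBP2-null cells. The order of the replicates was opposite in the 2 genotypes, and the log2 fold change of Anln was 0.22 (SE 0.22). The cytokinesis regulator Ect2 and its partner Racgap1 had 0.14 and -0.074. Of 5 genes of chromosome structure, 4 estimates were above 0 and 1 below, and none passed. Topoisomerase Top2a, which untangles sister chromatids, had 8.38 and 9.14 in wild type and 8.47 and 9.06 in RBP2-null cells. Replicate 2 was higher by 0.75 and 0.59, and the log2 fold change of Top2a was 0.0072 (SE 0.31). A dimmer Top2a probe set had 0.70 (SE 0.48), and the mean over both tested ones was 0.35. The proliferation marker Mki67 had 7.90 and 8.32 in wild type and 7.43 and 8.21 in RBP2-null cells. Replicate 2 was again the higher line, by 0.42 and 0.78, and the log2 fold change was -0.29 (SE 0.31). The condensin subunits Smc2, Ncapg and Ncaph had 0.26, 0.10 and 0.099, with both RBP2-null lines above both wild-type lines for Smc2. The genotypes overlapped on the other tested Smc2 probe sets, which had 0.40, 0.033 and 0.97.

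**Figure D3:**
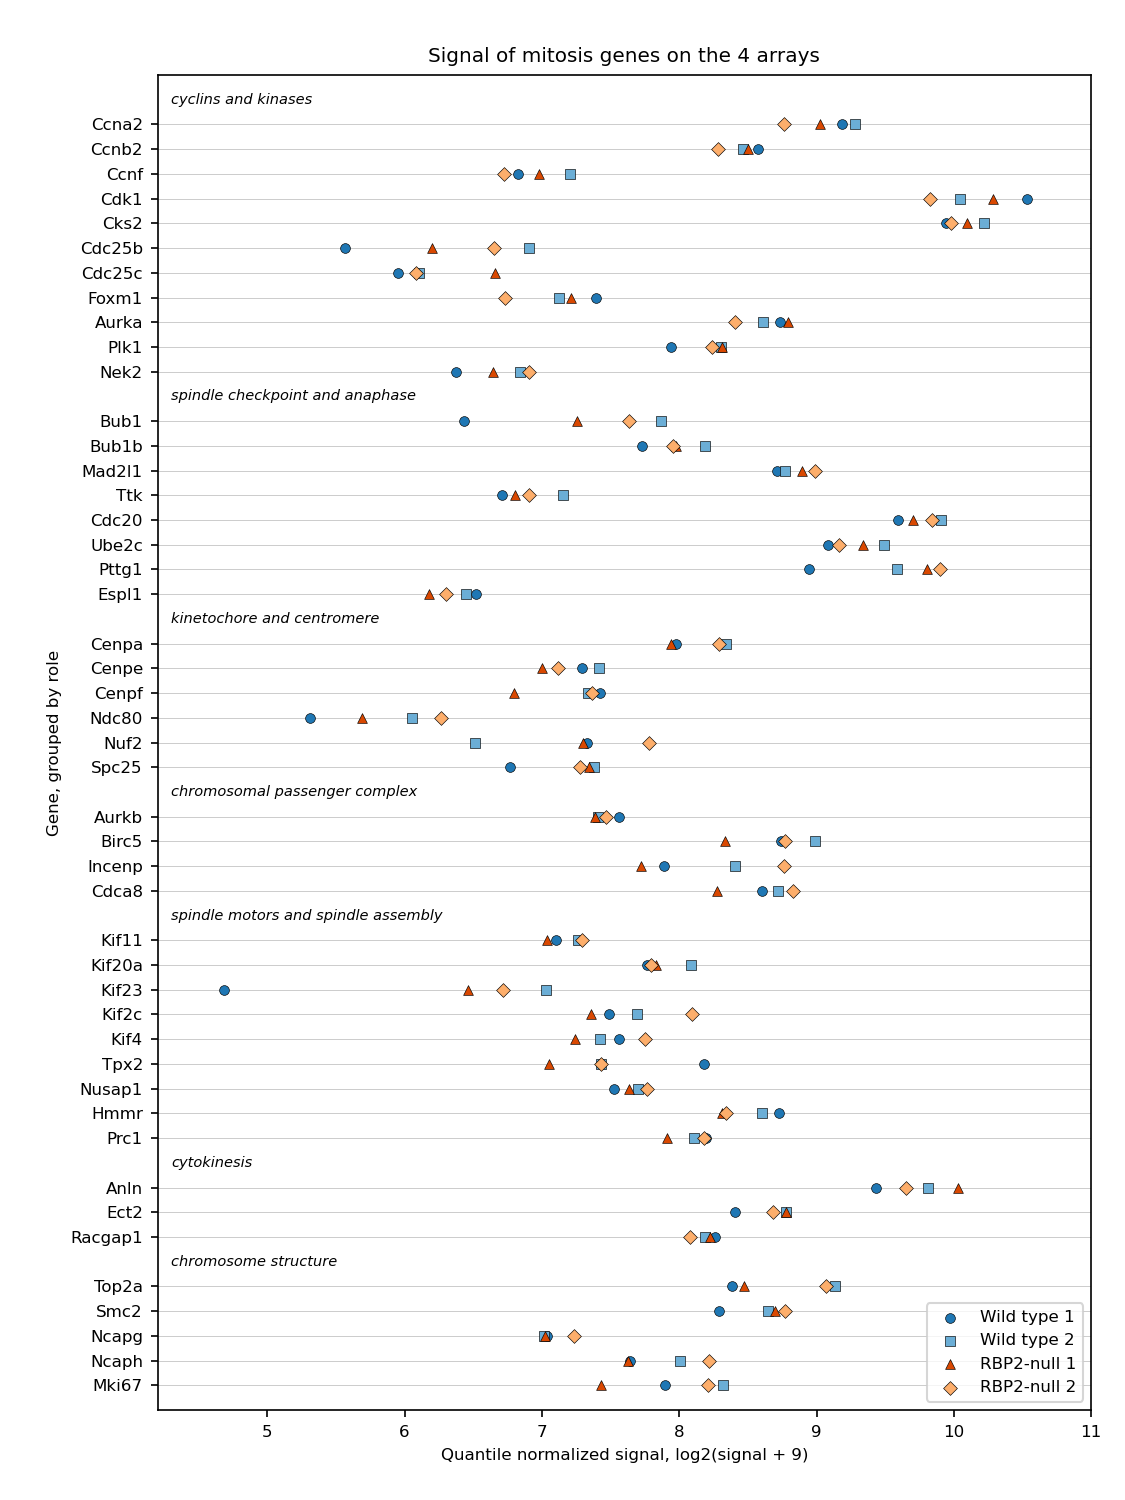
Quantile normalized signal of the 46 genes on each array, as log2(signal + 9), by role, with 1 point per line. In most rows the points of the 2 genotypes mix, and for Kif23 the array of wild-type replicate 1 stands far below the others, at 4.69.

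With quantile normalized arrays, groups did not overlap for 7 of the 46 genes. Both RBP2-null arrays were above both wild-type arrays for 3, Pttg1, Mad2l1 and Smc2, or 6.52%, against 13.4% of all genes tested. Both were below for 4, Ccna2, Espl1, Cenpe and Hmmr, or 8.70%, against 15.8%. Neither share exceeded that over all genes tested. These counts are for the brightest probe set of each gene. In Pttg1, Smc2, Ccna2, Cenpe and Hmmr no other tested probe set separated the genotypes in the same direction, and Mad2l1 and Espl1 had no other. The estimates depended on the scaling. With median-centred arrays the 3 had log2 fold changes of 0.91, 0.51 and 0.56, and the 4 had -0.025, -0.084, -0.069 and -0.047. Without scaling the 3 had 1.11, 0.71 and 0.76, and the 4 had 0.18, 0.12, 0.13 and 0.15. The medians of all tested probe sets were then 0.18 and 0.38.

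Probe sets of the same gene often gave different signs. The 46 genes had 105 probe sets, of which 91 were bright enough to be tested, and 0 of these passed. Of the 28 genes with several tested probe sets, 16 had estimates on both sides of 0. In 6 of them, Aurkb, Incenp, Kif11, Nek2, Pttg1 and Tpx2, at least 1 probe set had an absolute log2 fold change of 0.5 or more. Incenp had 0.092 on its brightest probe set and 1.10 and -0.53 on the dimmer ones, whose standard errors were 0.62 and 0.39. Nek2 had 6.38 and 6.84 in wild type and 6.65 and 6.91 in RBP2-null cells on its brightest probe set, where replicate 2 was higher in both genotypes. Its other probe sets had 0.45 and -0.93.

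**Figure D4:**
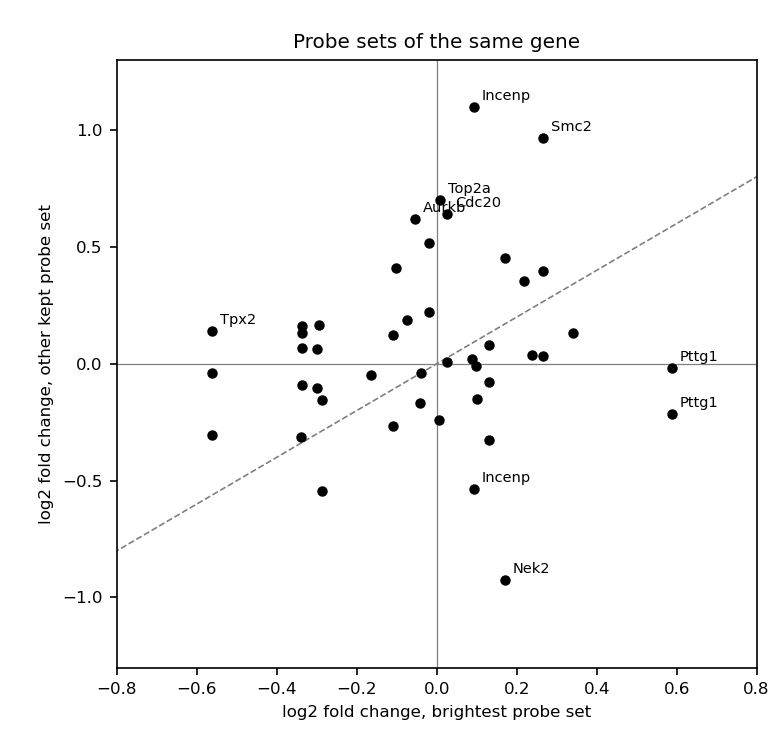
Log2 fold change of each other tested probe set of a mitotic gene (vertical axis) against that of the gene's brightest probe set (horizontal axis), with the line of equal values dashed. Genes are named where the difference exceeds 0.6 on the log2 scale, and points in the upper left and lower right quadrants are those with opposite signs.

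Array by array, these genes differed between lines of the same genotype. The signal in wild-type replicate 2 was above that in replicate 1 for 32 of 46 genes, or 69.6%, with a median difference of 0.26 on the log2 scale. Over 13097 genes tested that share was 48.5% and the median difference -0.018. In RBP2-null cells replicate 2 was above replicate 1 for 30 of 46, or 65.2% against 48.5%, with a median difference of 0.12. Both differences were above 0 for 21 genes, or 45.7% against 26.7% of all genes tested, and below 0 for 5, Ccnb2, Cdk1, Foxm1, Aurka and Racgap1, or 10.9% against 29.6%. The lines numbered 2 were also on the brighter arrays, with a trimmed mean of deposited signal of 101 and 152 against 61.7 and 77.9, and the part of brightness in the difference was not tested. The median absolute difference was 0.34 between wild-type lines, 0.26 between RBP2-null lines and 0.16 between the genotype means, close to 0.32, 0.28 and 0.19 over all genes tested. Each genotype mean rests on 2 arrays, so it varies less than a single array.

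Wild-type replicate 1 gave the lowest of the 4 signals for 21 of the 46 genes, or 45.7%, among them Pttg1, Cdc20, Plk1, Bub1, Kif23, Anln and Top2a. Wild-type replicate 2 gave the lowest signal for 2, Nuf2 and Ncapg, or 4.35%. Over all genes tested these shares were 29.1% and 20.3%. RBP2-null replicate 1 gave the lowest signal for 16, or 34.8%, and RBP2-null replicate 2 for 7, or 15.2%, each against 25.3%. Median-centred arrays were an alternative for this count chosen after seeing the data. With them the counts for the wild-type lines were 39 and 1, and without scaling 37 and 1. The shares over all genes were then 57.6% and 13.5%, and 64.0% and 7.07%. RBP2-null replicate 1 was lowest for 4 with median-centred arrays and 8 without scaling. These were 8.70% and 17.4%, against 17.1% and 27.6%. With quantile normalized arrays the median deviation from a gene's mean was -0.12 and 0.11 for the wild-type lines and -0.044 and 0.083 for the RBP2-null lines. The high end changed with the scaling. With quantile normalized arrays wild-type replicate 2 gave the highest signal for 18 genes and RBP2-null replicate 2 for 14. These were 39.1% and 30.4%, against 20.2% and 21.3% of all genes tested. With median-centred arrays the counts were 14 and 25, or 30.4% and 54.3%, against 20.2% and 39.9%. Without scaling they were 0 and 46, where the shares over all genes were 6.48% and 88.7%. The median deviations of these 2 lines were 0.20 and 0.28 with median-centred arrays, against 0.075 and 0.15 over all genes. Without scaling they were 0.24 and 0.78, against 0.11 and 0.65.

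**Figure D5:**
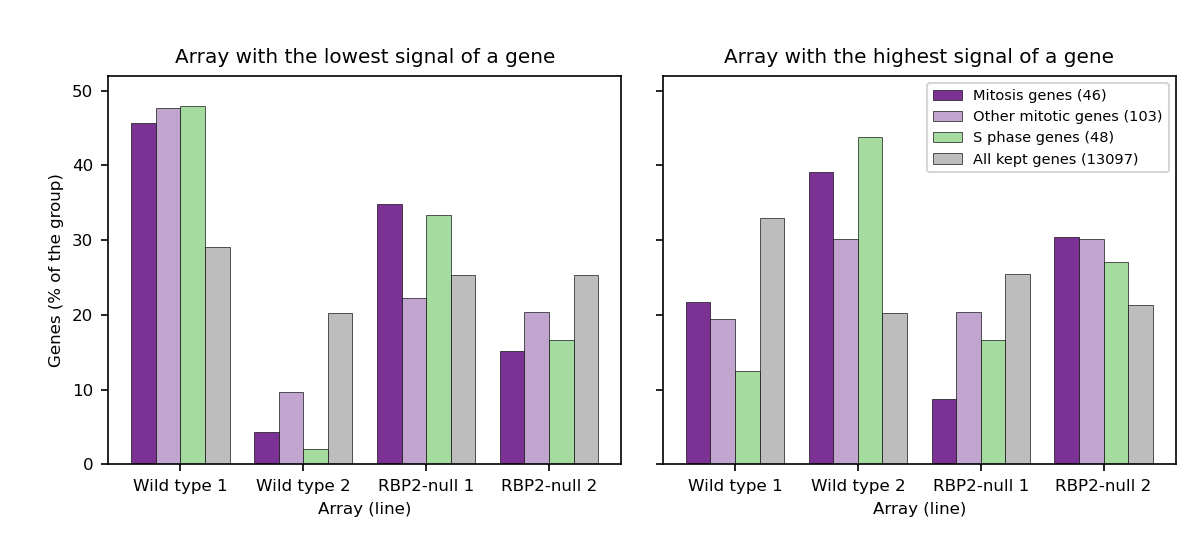
Share of genes whose lowest (left) or highest (right) quantile normalized signal was on a given array, for the 46 mitotic genes, 103 other mitotic genes, 48 S phase genes and all 13097 genes tested. The bars of the cell cycle lists are tallest for wild-type replicate 1 on the left, between 45.7% and 47.9%, against 29.1% for all genes.

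A further list of 108 mitotic genes held other kinetochore and checkpoint subunits, cohesin, condensin, the anaphase-promoting complex and the MuvB core. Of these, 106 had a named probe set and 103 were tested, with 58 estimates above 0, 45 below and a median of 0.038. None passed the threshold, with 0 higher and 0 lower in limma, and 6 had an unadjusted p under 0.05, or 5.83% against 2.60% of all genes tested. The 3 genes with the smallest p in each direction follow, of which 5 had an unadjusted p under 0.05 and Mis12 did not. Cenpw, a centromere histone-fold protein, had log2 signals of 6.15 and 6.54 in wild type and 6.97 and 7.41 in RBP2-null cells. Its log2 fold change was 0.85 (SE 0.30). Ncaph2, a condensin II subunit, and Cdca3, a trigger of mitotic entry, had 0.68 and 0.62. Pkmyt1, the kinase that inhibits Cdk1, had 7.47 and 6.82 in wild type and 5.67 and 6.40 in RBP2-null cells. Both RBP2-null lines were lower for Pkmyt1, with a log2 fold change of -1.11 (SE 0.36). Nsl1 and Mis12, partners in the complex that anchors the outer kinetochore, had -0.85 and -0.75, and their standard errors were 0.32 and 0.33. On the brightest probe set of each, the 95% interval lay within a 2-fold change for 68 of these 103 genes.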

How the data were processed

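The authors deposited a table of linear signal intensity per probe set for 4 Affymetrix arrays, hybridised with biotin-labelled total RNA per the labels, and the sources used here do not name its summarisation or background correction. The 64 control probe sets were left out, the other 45037 were quantile normalized, a pseudocount of 9 (the 25th percentile of the values, rounded) was added and log2 taken. The upper 60% by mean over the 4 arrays, 27022 probe sets, were tested in limma 3.58.1 under R 4.3.3, with a mean-dependent prior, two-sided, with Benjamini-Hochberg adjustment over all of them and a threshold of 0.05. With 2 lines against 2, an exact permutation test cannot go below 0.333, and p-values rest on how far these lines differ, which may be in part technical. Symbols came from the platform annotation, with 34945 probe sets of 1 symbol, 932 of several and 9160 of none, and 34741 were matched to RefSeq by Entrez number. Full values were given for the 5 highest and 5 lowest estimates, the brightest gene of each role and 8 listed genes. Of the 8, Ccnb1 had no probe set annotated with its symbol alone. Full values were also given for genes whose probe sets differed in sign with 1 past 0.5. The genes in both lists, and the tests, were chosen with earlier results of these data known. The procedure was run on simulated data with added changes of 2-fold or more, so that run does not show how often smaller changes would be found. Alternatives covered scaling, pseudocount, filter, variance model, choice of probe set, replicate number as a block, threshold and each line left out.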

Additional observations from a re-analysis of the deposited data

How the results depend on the processing

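The count of 0 mitotic genes past the threshold was the same under each alternative run, and so was that of the other mitotic genes. The count over all probe sets, 1, was 2 with median-centred arrays, 0 with unscaled arrays, 0 with every probe set kept, 0 under a constant prior variance and between 0 and 42 with a line left out. The median log2 fold change of the mitotic genes was 0.27 with median-centred arrays and 0.47 without scaling, where 37 and 45 estimates were above 0. Relative to the median of all tested probe sets it was 0.082 in both. With a line left out the median lay between -0.12 and 0.14 and the number above 0 between 12 and 29. Replicate numbers in the titles are not stated to mark shared litters or days, and the correlation of same-numbered deviations was 0.074, so they were not taken as pairs. With the replicate block, 49 probe sets passed and 0 mitotic genes.

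Of the 46 genes, none past the threshold, 14 turned sign with median-centred arrays, 22 without scaling, and 15, 8, 6 and 11 without wild-type replicate 1, wild-type replicate 2, RBP2-null replicate 1 and RBP2-null replicate 2. The values that follow are for the 22 genes given in full. With median-centred arrays Cdk1, Cenpa, Aurkb and Kif11 had 0.085, 0.23, 0.19 and 0.20. Without scaling Ccna2, Hmmr, Birc5, Cenpf and Cdk1 had 0.18, 0.15, 0.18, 0.13 and 0.29, and Cenpa, Aurkb, Foxm1, Mki67 and Kif11 had 0.43, 0.39, 0.15, 0.17 and 0.40, where the median of all stood at 0.38. Without probe sets ending in _x_at and _s_at, Pttg1 had -0.22, Incenp had 1.10 and Nek2 had 0.45, and Aurkb had no probe set left. As a mean over tested probe sets Aurkb, Kif11 and Nek2 had 0.28, 0.24 and -0.10. With each line left out in turn, the values ran from -0.44 to 1.90 for Kif23, from -0.075 to 0.67 for Ndc80, from -0.48 to 0.015 for Cdk1, from -0.13 to 0.18 for Cdc20, from -0.37 to 0.38 for Top2a, from -0.024 to 0.33 for Plk1. They ran from -0.13 to 0.021 for Aurkb, from -0.43 to 0.61 for Incenp, from -0.060 to 0.40 for Nek2, from -0.22 to 0.14 for Cenpa, from -0.15 to 0.11 for Kif11, from -0.68 to 0.0997 for Mki67. With 4 arrays, precision is limited for each value.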

Other observations

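Genes of S phase, which copy the DNA before mitosis, were also compared array by array. Of a list of 50, 48 were tested, with 24 estimates above 0, 24 below and a median log2 fold change of 0.0037, and none passed in limma, with 0 at an unadjusted p under 0.05. Wild-type replicate 1 had the lowest signal for 23 of them and wild-type replicate 2 for 1. The median difference of wild-type replicate 2 from replicate 1 was 0.25 on the log2 scale, above 0 for 38 of 48 genes, and that of RBP2-null replicate 2 from replicate 1 was 0.15, above 0 for 33. With quantile normalized arrays both RBP2-null arrays were below both wild-type arrays for 13 S phase genes, or 27.1% against 15.8% of all genes tested. They were above for 2, or 4.17% against 13.4%. The count of 13 depended on the scaling. With median-centred arrays RBP2-null replicate 1 gave the lowest signal for only 5 S phase genes and RBP2-null replicate 2 for 2. Without scaling RBP2-null replicate 2 gave the highest signal for 47 of the 48.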
